A study of Mus musculus with 51 samples.

Results

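The nuclear-encoded subunits of the mitochondrial respiratory chain were taken as the genes whose symbols follow the naming of complex I (Nduf), complex II (Sdh), complex III (Uqcr), complex IV (Cox4 to Cox8) and complex V (Atp5), with a mean of at least 1 CPM (counts scaled to library size) over the 51 libraries of the study. Of 24421 genes in the deposited files, 83 had such a symbol and 78 reached that level: 35 of complex I, 4 of complex II, 8 of complex III, 14 of complex IV and 17 of complex V. The 5 symbols below it were Ndufs5 with 3 to 87 counts in each group of libraries, Cox7a1, Cox7b2, Cox8b and Cox8c, of which Cox8c had no count in any library. Just inside the limit were Cox6a2 (1.23 CPM), Cox6b2 (1.85 CPM) and Cox4i2 (5.26 CPM), and just outside it were Ndufs5 (0.75 CPM), Cox7a1 (0.61 CPM) and Cox7b2 (0.13 CPM). Ndufs5 encodes a subunit of complex I, and 60.76% of its transcript is shared with a pseudogene copy at 95% identity or more, so its low count is uncertain.

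The libraries came from the prefrontal cortex of 17 adult male C57BL/6J mice, 8 controls and 9 exposed to chronic intermittent ethanol vapor (CIE). Both groups stayed in chambers for 16 h per day in 4 weekly cycles and both received pyrazole (1 mmol/kg), an inhibitor of alcohol dehydrogenase that holds blood ethanol up. Controls breathed air after saline, and CIE mice breathed ethanol vapor (15 to 20 mg/L) after ethanol (1.6 g/kg). Each mouse gave 3 preparations: total homogenate (TH), a small share of the minced tissue set aside before dissociation; astrocytes (AS), held on beads against the surface antigen ACSA2 after dissociation and removal of myelin; and microglia (CD), held on beads against CD11b from the cells that the astrocyte beads left.

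The respiratory chain lies in the inner mitochondrial membrane. Complex I (NADH dehydrogenase) and complex II (succinate dehydrogenase, also an enzyme of the citric acid cycle) pass electrons to ubiquinone, complex III (ubiquinol-cytochrome c reductase) passes them to cytochrome c, and complex IV (cytochrome c oxidase) passes them to oxygen, while complex V (ATP synthase) uses the resulting proton gradient to make ATP. Complexes I, III, IV and V also hold subunits encoded by mitochondrial DNA, which are not analysed here and in complex V belong to the membrane part, whereas all subunits of complex II are nuclear. In the brain most oxidative ATP is used by neurons, and astrocytes are known to rely more on glycolysis.

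Many nuclear genes of the chain are known targets of the factors NRF-1 and GABP (an ETS factor), YY1 and ERR-alpha. Promoter windows of RefSeq (GRCm38.p6, the build the counts were made on, from 250 bases before to 50 bases after the transcript start) were at hand for 62 of the 78 genes and were searched on both strands. The NRF-1 motif GCGCANGCG was found in 19 of the 62 windows (30.65%, against 7.03% of 27025 genes), the GABP/ETS motif CCGGAAG in 25.81% against 9.93%, the YY1 motif AAGATGGC in 14.52% against 3.19% and the ERR-alpha motif TCAAGGTCA in 3.23% against 0.47%. At least 1 of these motifs was found in 36 of the 62 (58.06%, against 18.18% of all genes). The CCAAT box was about as common as in all genes (43.55% against 41.06%), and TATAAA was less common (8.06% against 15.67%). A match is a match of letters and not a measured site. The stretches printed here lie upstream of the transcript starts of genes on which the comparisons turn: the complex II genes Sdha and Sdhd, which hold NRF-1 matches, the complex IV gene Cox6a1, and Cox8a, the abundant gene with the widest gap between total homogenate and astrocytes. Capitals mark matches of the NRF-1 motif and, at the last capitals of Sdhd, of the GABP/ETS motif on the other strand. The first capital run of Cox6a1 holds overlapping matches of both strands, and the Cox8a stretch holds no match, the GABP/ETS match of its window lying outside the stretch. Further matches also lie outside the printed stretches. Sdha has an NRF-1 match from base -10, Cox6a1 a GABP/ETS match from base -16 and Sdhd an ERR-alpha match.
Sdha, chr13:74350281-74350348, minus strand: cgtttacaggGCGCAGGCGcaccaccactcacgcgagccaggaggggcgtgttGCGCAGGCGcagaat
Sdhd, chr9:50603879-50603938, minus strand: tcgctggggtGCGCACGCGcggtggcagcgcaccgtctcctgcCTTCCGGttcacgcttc
Cox6a1, chr5:115348982-115349130, minus strand: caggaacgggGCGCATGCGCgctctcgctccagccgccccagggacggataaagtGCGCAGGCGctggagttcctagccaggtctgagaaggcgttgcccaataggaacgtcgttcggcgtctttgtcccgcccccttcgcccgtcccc
Cox8a, chr19:7217617-7217696, minus strand: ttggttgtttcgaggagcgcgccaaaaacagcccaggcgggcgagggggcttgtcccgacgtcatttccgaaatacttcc

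Counts assigned to genes ran from 5042926 to 15594154 per library in total homogenate, from 2082289 to 10041788 in astrocytes and from 571878 to 6026453 in microglia. The 78 genes together took 0.546 to 0.868% of those counts in total homogenate, 0.415 to 0.686% in astrocytes and 0.188 to 0.391% in microglia. The range of microglia did not overlap with that of total homogenate or that of astrocytes. The labels of the preparations were checked against marker genes. In control mice the 10 astrocyte markers summed to 11764 to 19508 CPM in astrocytes, 6362 to 8979 CPM in total homogenate and 242.1 to 733.3 CPM in microglia. The 10 microglia markers summed to 22193 to 36710 CPM in microglia and 578.2 to 950.2 CPM in total homogenate. The astrocyte libraries also held 1525 to 6969 CPM of microglia markers and 19275 to 26822 CPM of the 8 oligodendrocyte markers. The latter were above their 984.0 to 3878 CPM in total homogenate, and in every control astrocyte library above the sum of the astrocyte markers. The astrocyte preparation is thus a mixture, and its values are not those of astrocytes alone. The 10 neuron markers summed to 7626 to 9528 CPM in total homogenate, 80.98 to 464.7 CPM in astrocytes and 81.87 to 353.0 CPM in microglia. No marker of these 4 lists was at 0 in every library of a preparation.

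Levels of different genes were compared as CPM per kb of transcript, since the transcripts ran from 371 bases (Atp5k) to 3171 bases (Sdhc). Over all libraries Cox4i1, the common isoform of a regulatory subunit of complex IV, was the highest at 290.4 CPM per kb, followed within complex V by Atp5b, the catalytic beta subunit, at 263.9. The lowest was Cox6a2, the heart and muscle isoform of a complex IV subunit, at 1.84 CPM per kb. Within complex I the levels spanned from 11.3 CPM per kb for Ndufb4 to 87.6 for Ndufb9, both accessory subunits, and within complex II from 19.8 for Sdhc, a membrane anchor, to 90.8 for Sdha, the flavoprotein with the active site. Complex III was the most even, from 38.1 CPM per kb for Uqcrfs1, the Rieske iron-sulfur protein, to 97.5 for Uqcrh, the hinge protein, a 2.56-fold span. In complex V, Atp5s was the lowest at 4.97 CPM per kb. Atp5s (Dmac2l) and Atp5sl (Dmac2, a complex I assembly factor) are not subunits of ATP synthase although their symbols say so, Ndufa4 is now counted with complex IV, and Cox7a2l is a factor that joins complexes III and IV into supercomplexes.

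**Figure D1:**
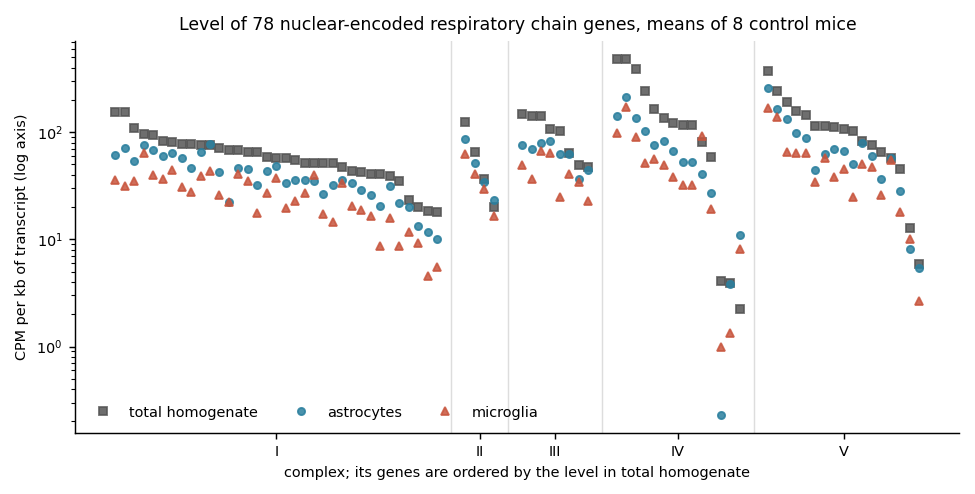
Each column is 1 of the 78 genes, grouped by complex (x axis) and ordered by its level in total homogenate; the y axis is the mean CPM per kb of transcript over 8 control mice on a log axis, with squares for total homogenate, circles for astrocytes and triangles for microglia. Total homogenate is the highest mark in most columns, with a median of 73.2 CPM per kb over the genes against 49.7 in astrocytes and 34.2 in microglia.

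Preparations were compared in control mice in 1 fit of all 51 libraries, which asked where the chain's transcripts are most abundant. Astrocytes held less of most of them than total homogenate: 65 of 78 genes were lower and 1, Cox4i2, was higher, where 40.8% of all 14379 genes tested were lower and 36.2% higher. The median log2 difference was -0.68 over the 78 genes and -0.06 over all genes. Microglia were lower still, with 75 genes lower and 1 higher against total homogenate, where 46.1% of all genes were lower and 37.5% higher, and with a median of -1.29 against -0.17 over all genes. Microglia against astrocytes gave 63 lower and 3 higher, where 34.1% of all genes were lower and 35.7% higher, and a median of -0.61 against 0.01 over all genes. Total homogenate was not dissociated, so the preparation steps and the makeup of cells cannot be told apart in the first 2 comparisons, and in bulk RNA fewer cells of a type and less RNA per cell cannot be told apart. Neuron markers were lower for 10 of 10 genes in astrocytes (median log2 difference -5.89) and in microglia (-5.44) against total homogenate, and did not pass the threshold for any of 10 between microglia and astrocytes (median 0.42). Their part in these differences was not tested. Astrocyte libraries of control mice held 19275 to 26822 CPM of oligodendrocyte markers, against 1706 to 7102 CPM in microglia. Reads not unique had a median of 10.5% in all astrocyte libraries and 23.9% in all microglia libraries. The paper also gives less RNA and a lower minimum RNA integrity for microglia. The part of these in the comparison of microglia with astrocytes was not tested. Counts could not be split safely between a gene and its near-identical copies for 22 of the 78, and among the 56 genes with no such copy 46, 55 and 45 were lower in the same 3 comparisons.

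**Figure D2:**
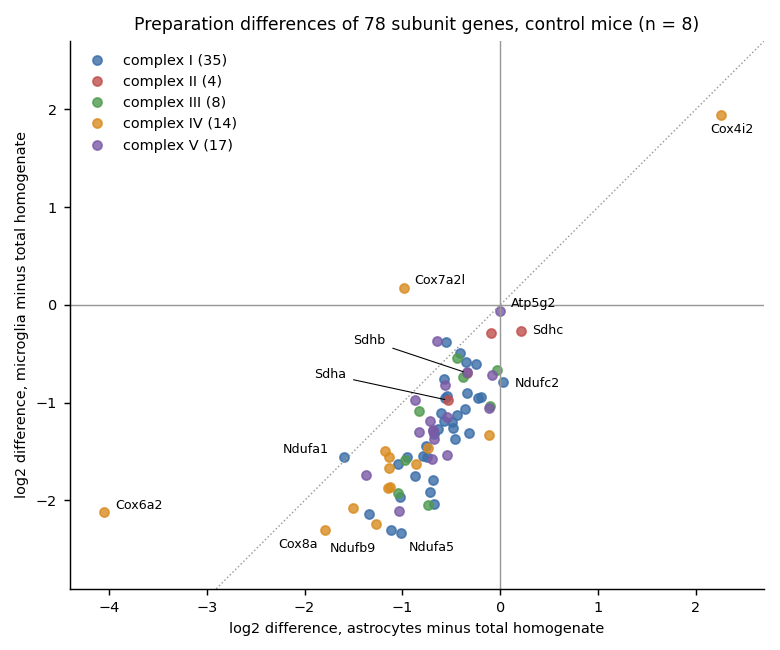
Each point is 1 of the 78 genes in control mice (n = 8 per preparation); the x axis is the log2 difference of astrocytes and the y axis that of microglia from total homogenate, colored by complex, with the dotted line where both are equal. Both axes share the total homogenate libraries, so the points do not show 2 independent comparisons; Cox4i2 lies alone at the upper right, Cox6a2 at the far left and Cox7a2l above the 0 line.

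The complexes differed in how far they were apart. Complex IV had the largest median difference from total homogenate, -1.14 in astrocytes and -1.65 in microglia. Complex II had the smallest, -0.22 and -0.49. Complex I (-0.58 and -1.27), complex III (-0.59 and -1.06) and complex V (-0.68 and -1.19) lay between them. The order of the complexes was not tested. Between microglia and astrocytes the medians were closer together, from -0.70 in complex I to -0.40 in complex II. Across the 78 genes, longer transcripts had less negative differences from total homogenate (Spearman's rho 0.42 for astrocytes and 0.42 for microglia, and 0.13 between microglia and astrocytes). This is a description over genes that share libraries, and the part of transcript length was not tested.

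In complex I, 31 of 35 genes were lower in astrocytes than in total homogenate and all 35 were lower in microglia. Ndufa1, an accessory subunit encoded on the X chromosome, was measured at 24.1 to 34.8 CPM in total homogenate (median 27.3), 6.44 to 13.02 CPM in astrocytes (median 9.14) and 4.45 to 12.4 CPM in microglia (median 10.3) of control mice. Its total homogenate libraries lay above all others, and its level in microglia was not told apart from that in astrocytes (log2 difference 0.05 ± 0.18 SE, adjusted p = 0.82). Against total homogenate it was lower by -1.60 ± 0.15 in astrocytes (adjusted p = 4.309e-14), the largest gap of complex I there. Ndufa5, an accessory subunit of the peripheral arm, had 27.2 to 47.1 CPM in total homogenate, 10.0 to 21.4 CPM in astrocytes and 3.71 to 13.9 CPM in microglia, with the microglia partly below the astrocytes. Its difference between microglia and total homogenate, -2.33 ± 0.24, was the largest of the 78 genes (adjusted p = 3.947e-13), next to Ndufb9 at -2.30 ± 0.17 and Cox8a at -2.30 ± 0.15. Ndufb9 was measured at 90.5 to 128.4 CPM in total homogenate, 38.2 to 66.8 CPM in astrocytes and 16.8 to 30.6 CPM in microglia, 3 ranges that did not overlap.

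Ndufc2, an accessory subunit of the membrane arm, stood apart from that order. It had 44.5 to 60.3 CPM in total homogenate and 38.2 to 70.6 CPM in astrocytes, ranges that overlapped (log2 difference 0.03, 95% interval -0.24 to 0.31), whereas microglia had 13.6 to 46.9 CPM (-0.82 ± 0.15 against astrocytes, adjusted p = 3.499e-06). Ndufc1, its partner in the membrane arm, was the furthest below astrocytes in microglia of the 78 genes, by -1.35 ± 0.22 (adjusted p = 2.905e-07), at 1.05 to 8.89 CPM against 9.80 to 25.2 CPM.

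Complex II showed the smallest gaps, and all 4 of its genes are given. Sdha was measured at 313.3 to 410.2 CPM in total homogenate (median 355.6), 213.6 to 301.9 CPM in astrocytes (median 253.8) and 116.7 to 229.8 CPM in microglia (median 186.9). Only the astrocyte and microglia ranges overlapped. The log2 differences from total homogenate were -0.53 ± 0.11 in astrocytes (adjusted p = 1.988e-05) and -0.98 ± 0.11 in microglia (adjusted p = 2.072e-11). Sdhb, the iron-sulfur subunit, was measured at 61.6 to 85.7, 49.5 to 78.1 and 35.6 to 54.5 CPM in the same order, and differed by -0.34 ± 0.11 and -0.70 ± 0.12. The anchors were the least apart: Sdhc was 0.22 ± 0.11 above total homogenate in astrocytes, short of the threshold (adjusted p = 0.079), and -0.26 ± 0.12 in microglia, and Sdhd was at -0.09 ± 0.11 (adjusted p = 0.45) and -0.29 ± 0.12. In CIE mice Sdhc passed the threshold in astrocytes, at 0.33 (adjusted p = 0.0043), and Sdhd turned to 0.08, short of it.

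In complex III, 6 of 8 genes were lower in astrocytes and all 8 in microglia. Uqcr10, a small subunit with a near-identical copy over 43.78% of its transcript, had the largest gap between microglia and astrocytes of the complex (-1.31 ± 0.18, adjusted p = 5.091e-09), at 7.90 to 12.98 CPM against 18.8 to 36.5 CPM, ranges that did not overlap in control mice. Uqcrfs1 was not told apart between astrocytes and total homogenate (-0.11, 95% interval -0.38 to 0.16) and was -1.04 ± 0.15 in microglia. Uqcrh gave the opposite pattern, at -0.83 ± 0.13 in astrocytes, -1.08 ± 0.14 in microglia and -0.25 between microglia and astrocytes (95% interval -0.54 to 0.04).

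Complex IV had the largest median gaps from total homogenate. It also held Cox4i2, the only gene of the chain called higher than total homogenate in both bead preparations. Several of its subunits come as isoform pairs, whose part in these differences was not tested. Cox4i1 was measured at 308.3 to 416.5 CPM in total homogenate, 118.9 to 231.9 CPM in astrocytes and 101.7 to 214.3 CPM in microglia, with both bead preparations below every homogenate library. Its log2 differences were -1.175 ± 0.14 and -1.495 ± 0.14, and between microglia and astrocytes -0.32 ± 0.14 (adjusted p = 0.041, and adjusted p = 0.063 with the mouse as a block). Cox4i2 (chr2:152754173-152765037, plus strand, mm10), the isoform known from lung and cells of the vessel wall, ran the other way. It had 1.15 to 2.46 CPM in total homogenate (median 1.53), 5.56 to 10.9 CPM in astrocytes (median 7.74) and 1.05 to 10.8 CPM in microglia (median 5.73). Astrocytes were above total homogenate in every library of both treatments, by a log2 difference of 2.26 ± 0.27 in controls (adjusted p = 1.326e-10), and microglia overlapped with both (1.94 ± 0.30 against total homogenate, adjusted p = 5.516e-08). The microglia libraries of control mice rested on 1 to 44 counts each. Microglia were above total homogenate in 2 of the 4 mice numbered 3 to 8, where control mice 03 and 05 had 1.05 and 2.23 CPM in microglia against 2.07 and 1.52 CPM in total homogenate, and CIE mice 06 and 08 had 2.91 and 0.89 CPM against 0.92 and 1.87 CPM. The other 6 control mice had 3.95 to 10.8 CPM in microglia. Against mice 3 to 8, Cox4i2 in microglia differed by 1.412 in mice 19 to 26 and 1.797 in mice 35 to 41 (log2). The adjusted p over the 3 ranges was 0.052 (edgeR). That test called 16.1% of all genes. It also called 7 of 7 mural cell markers (medians 1.20 and 1.84) and 7 of 7 endothelial markers (1.02 and 2.06). Of oligodendrocyte markers 8 of 8 were called (1.36 and 1.13), and of microglia markers 0 of 10. Of Cox4i1 and Cox4i2 together, per kb of transcript, Cox4i2 made up 0.43% ± 0.13 in total homogenate (SD, n = 17), 5.06% ± 1.32 in astrocytes and 3.97% ± 2.14 in microglia. Mural cell markers were higher than in total homogenate for 6 of 8 genes in astrocytes and 6 of 8 in microglia, with sums of 1082 to 1767 CPM and 169.0 to 1144 CPM against 137.9 to 357.8 CPM. Endothelial markers of control mice summed to 987.3 to 2295 CPM in astrocytes, 227.3 to 1744 CPM in microglia and 272.7 to 483.2 CPM in total homogenate. The part of these cells in the level of Cox4i2 was not tested.

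Cox6a1, the common isoform of its subunit, was measured at 173.4 to 262.9 CPM in total homogenate, 58.2 to 100.8 CPM in astrocytes and 33.5 to 71.8 CPM in microglia, and differed from total homogenate by -1.504 ± 0.12 and -2.08 ± 0.13. Cox6a2 was at 1.82 to 3.60 CPM in total homogenate and at most 0.42 CPM in astrocytes and 1.48 CPM in microglia of control mice. It reached the level limit of 1 CPM only through total homogenate, so a gap to the bead preparations was built into its choice, and its fitted difference in astrocytes (-4.05) is given as a description. That value rested on 6 counts in 8 astrocyte libraries, 3 of them at 0. Cox6a2 is 1 of the 65 and 75 genes counted as lower than total homogenate. Its excess in microglia over astrocytes (1.93 ± 0.74, adjusted p = 0.0067) rested on 11 counts against 6 and was 0.79 in CIE mice, short of the threshold. Cox6b2, the testis isoform beside Cox6b1, was not told apart between astrocytes and total homogenate (-0.12 ± 0.31, adjusted p = 0.73), while Cox6b1 was lower by -1.13 ± 0.15. Per kb, Cox6b2 made up 2.45% ± 1.29 of the pair in total homogenate of control mice (SD, n = 8), 4.94% ± 1.85 in astrocytes and 2.11% ± 1.93 in microglia. In CIE mice (n = 9) the shares were 2.74% ± 1.51, 6.97% ± 1.98 and 6.30% ± 2.99, and those of microglia rested on 13 counts in control and 33 in CIE mice. Cox7a2, whose muscle partner Cox7a1 was below the limit, was lower by -1.15 ± 0.15 in astrocytes and -1.87 ± 0.17 in microglia.

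Cox8a, the common isoform of a small subunit, was the most abundant gene of the 78 per kb in total homogenate of control mice (486.9 CPM per kb). It was measured at 215.7 to 328.5 CPM there (median 261.6), 60.2 to 120.6 CPM in astrocytes (median 72.9) and 36.4 to 87.1 CPM in microglia (median 51.9). Total homogenate lay above every bead library, by -1.79 ± 0.14 for astrocytes (adjusted p = 3.771e-16) and -2.30 ± 0.15 for microglia (adjusted p = 1.457e-19). Cox7a2l (chr17:83501918-83517330, minus strand, mm10) was among the exceptions to the lower levels in microglia. It had 74.0 to 96.8 CPM in total homogenate (median 87.4), 35.4 to 53.3 CPM in astrocytes (median 44.9) and 74.2 to 133.9 CPM in microglia (median 98.3) of control mice, so that every microglia library lay above every astrocyte library, also over both treatments. The log2 difference of microglia from astrocytes was 1.16 ± 0.11 (adjusted p = 1.541e-13), and that from total homogenate was 0.17 ± 0.11, short of the threshold (adjusted p = 0.13). In CIE mice the latter was -0.21 (adjusted p = 0.045). A pseudogene copy covers 31.23% of the Cox7a2l transcript.

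**Figure D3:**
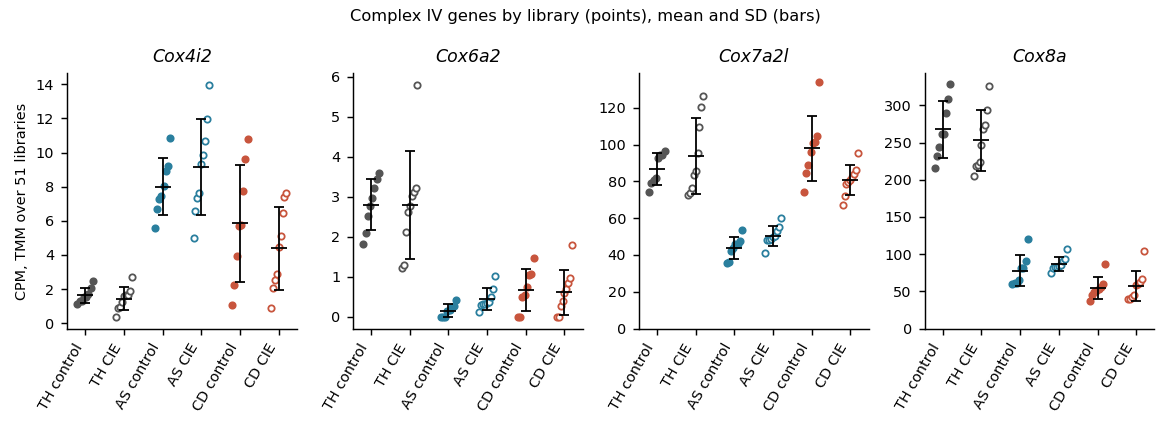
The panels show Cox4i2, Cox6a2, Cox7a2l and Cox8a, with CPM on the y axis (scaled by TMM over all 51 libraries) and the 6 groups on the x axis; points are libraries, filled for 8 controls and open for 9 CIE mice, and bars are the mean and SD. Cox4i2 is highest in astrocytes, Cox6a2 and Cox8a in total homogenate, and Cox7a2l is lowest in astrocytes, where its 17 libraries lie below those of microglia.

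In complex V, 14 of 17 genes were lower in astrocytes and 16 of 17 in microglia. Atp5b was measured at 643.2 to 897.7 CPM in total homogenate, 430.7 to 610.0 CPM in astrocytes and 236.9 to 385.9 CPM in microglia, 3 ranges that did not overlap. Its differences from total homogenate were -0.54 ± 0.13 and -1.15 ± 0.13. The 3 genes for subunit c of the membrane ring, which differ mainly in the part removed on import, did not move together. Atp5g1 was lower by -1.37 ± 0.16 in astrocytes and -1.74 ± 0.18 in microglia, Atp5g3 by -0.54 ± 0.13 and -1.53 ± 0.14, and Atp5g2 was at -0.01 ± 0.11 and -0.06 ± 0.12 (adjusted p = 0.96 and 0.63). Per kb, Atp5g2 thus made up 16.1% ± 2.0 of the 3 genes in total homogenate, 24.2% ± 1.9 in astrocytes and 35.8% ± 6.4 in microglia (SD, n = 17). Its transcript is wholly shared with pseudogene copies, so its count is uncertain. The shares also rest on the transcripts chosen, of 596 bases for Atp5g1 and 441 bases for Atp5g2. Their longest principal transcripts have 4715 and 731 bases. Atp5s differed by -0.11 ± 0.16 in astrocytes and -1.06 ± 0.21 in microglia. Atp5sl was above astrocytes in microglia by 0.27 ± 0.10 (adjusted p = 0.037), a call that was lost with the mouse as a block (0.26, adjusted p = 0.10), with RLE scaling (0.18, adjusted p = 0.42) and with DESeq2 (0.13, adjusted p = 0.33).

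The 17 libraries of each preparation, of both treatments, were also set side by side without a model. All astrocyte libraries lay below all total homogenate libraries for 15 of the 78 genes, where 22.66% of all genes did, and above them for 1 gene, where 15.9% did. All microglia libraries lay below total homogenate for 42 of the 78 genes, where 27.31% of all genes did, and above it for none, where 17.14% did. For microglia against astrocytes it was 9 genes below, where 13.82% of all genes did, and 1 gene, Cox7a2l, above, where 13.84% did. The share of the 78 genes was thus above the background for microglia against total homogenate only.

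Other gene lists gave the setting. Assembly factors, which build the complexes but are not part of them, were lower in astrocytes for 31 of 44 genes (median -0.51) and in microglia for 36 of 44 (median -0.65). Enzymes of the citric acid cycle and of pyruvate dehydrogenase were lower for 12 of 17 (median -0.42) and 14 of 17 (median -1.03). The 17 tested subunits and partners whose symbols fall outside the pattern were lower for 11 (median -0.42) and 14 (median -0.995). Regulators of mitochondrial biogenesis went both ways, with 4 higher and 3 lower of 15 in astrocytes and 6 higher and 5 lower in microglia. Among housekeeping complexes outside mitochondria, proteasome subunits had medians of -0.14 and -0.13. Cytosolic ribosomal proteins, whose transcripts are also short and abundant, were lower in astrocytes for 63 of 76 genes (median -0.58) and higher in microglia for 64 of 76 (median 0.73). Between microglia and astrocytes all 76 ribosomal protein genes were higher in microglia (median 1.34), while 63 of the 78 respiratory genes were lower.

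CIE was compared with control within each preparation. None of the 78 genes passed the threshold in any preparation: 0 of 77 tested in astrocytes, where 5.13% of all 12878 genes passed, 0 of 75 in microglia, where 3.47% of all 10761 genes did, and 0 of 78 in total homogenate, where 0.25% of all 13982 genes did. The calls over all genes moved with the mouse left out, from 354 (without CIE mouse 26) to 1001 (without CIE mouse 08) around 661 in astrocytes, from 182 (without control mouse 20) to 684 (without CIE mouse 08) around 373 in microglia, and from 15 (without control mouse 20 or 35) to 71 (without CIE mouse 41) around 35 in total homogenate, while none of the 78 was called. Below an unadjusted p of 0.05 were 3, 3 and 0 genes. DESeq2 also called none, with 5, 3 and 1 below an unadjusted p of 0.05. The median log2 change of the 78 genes was 0.00 in total homogenate (37 of 78 above 0), 0.09 in astrocytes (64 of 77) and 0.06 in microglia (48 of 75), where the medians of all genes were 0.01, 0.00 and -0.01. The 95% intervals lay within a 1.5-fold change in either direction for 76 of 78 genes in total homogenate, 76 of 77 in astrocytes and 62 of 75 in microglia, so changes beyond that size were outside the intervals of most genes. By complex, the median changes in astrocytes ran from 0.08 in complexes II, III and V to 0.12 in complex IV, in microglia from -0.06 in complex II to 0.07 in complex I, and in total homogenate from -0.02 to 0.02. No assembly factor, citric acid cycle enzyme, regulator of biogenesis, proteasome subunit or ribosomal protein of the lists passed the threshold in any preparation. The neutrophil markers passed it in microglia for 9 of 9 genes tested (median log2 change 2.95), with sums of 71.7 to 6928 CPM in CIE mice and 94.0 to 217.2 CPM in controls. In microglia the microglia markers were below 0 for all 10 genes (median -0.31, with Fcrls and Trem2 called lower), and the oligodendrocyte markers were above 0 for all 8 (median 0.74, with Mobp called higher). In astrocytes the called markers were Sox9 of astrocytes and Gpr17 of oligodendrocyte precursors, which were lower, and Mobp, Foxj1 of ependymal cells and Cd163 and Siglec1 of border macrophages, which were higher. In total homogenate no marker passed, and the 6 neutrophil markers tested had a median of 3.32. The part of these cells in the values of the 78 genes was not tested.

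**Figure D4:**
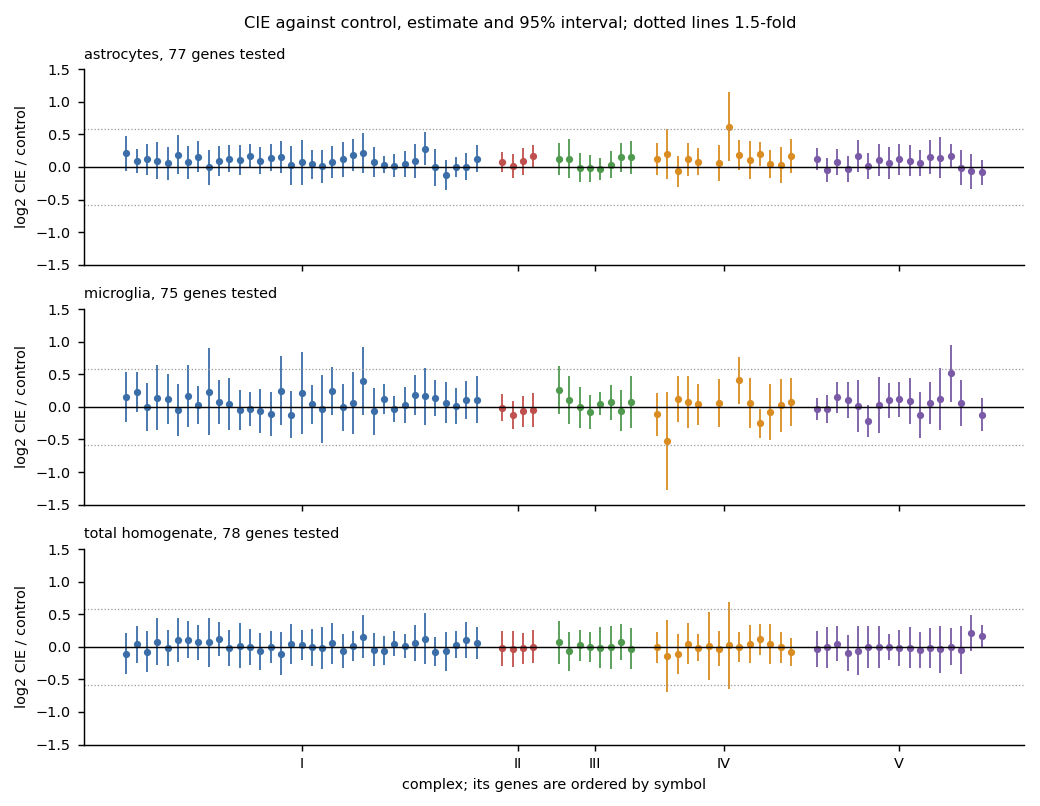
Points are the log2 change of CIE against control and lines the 95% interval for each gene, ordered by complex on the x axis and colored by it, with 1 panel per preparation (8 control and 9 CIE mice each); dotted lines mark a 1.5-fold change. Most intervals cross 0 in the 3 panels, and no gene passed the threshold in any of them.

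The genes of smallest p are given for each preparation. In astrocytes Cox6b2 was measured at 1.10 to 3.23 CPM in controls (median 1.65) and 1.56 to 4.54 CPM in CIE mice (median 2.86), overlapping groups with a log2 difference of 0.62 ± 0.25 (95% interval 0.09 to 1.15, adjusted p = 0.16). Cox7a2l followed with 35.4 to 53.3 CPM against 40.9 to 60.1 CPM (0.20 ± 0.09, adjusted p = 0.18). Ndufs6, a zinc-binding subunit of complex I, had 12.6 to 28.1 CPM against 19.8 to 27.5 CPM (0.28 ± 0.12, adjusted p = 0.19).

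In microglia Atp5l (subunit g of ATP synthase) was measured at 6.29 to 16.3 CPM in controls (median 9.11) and 8.23 to 22.2 CPM in CIE mice (median 12.1), with a log2 difference of 0.52 ± 0.21 (adjusted p = 0.20). Cox6c, a small subunit of complex IV, had 21.8 to 30.6 CPM against 17.4 to 51.9 CPM (0.41 ± 0.17, adjusted p = 0.21). Its CIE libraries spread on both sides of the controls. Cox7a2l was at -0.25 ± 0.11 (adjusted p = 0.22), with 74.2 to 133.9 CPM in controls and 67.0 to 95.6 CPM in CIE mice. In total homogenate the smallest p were those of Atp5sl (0.17 ± 0.08, adjusted p = 0.56), Atp5s (0.21 ± 0.13, adjusted p = 0.68) and Cox7a2l (0.12 ± 0.11, adjusted p = 0.84).

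The marker genes of the chain showed the same narrow range. The log2 difference of Sdha was -0.02 ± 0.13 in total homogenate, 0.08 ± 0.07 in astrocytes and -0.01 ± 0.10 in microglia, and that of Sdhb was -0.03 ± 0.14, 0.01 ± 0.09 and -0.13 ± 0.10. The CIE libraries of Sdha overlapped with the controls in each preparation, at 242.8 to 472.6 CPM, 231.8 to 278.9 CPM and 166.7 to 194.8 CPM.

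Whether a gene answered CIE differently in 2 preparations was tested by interaction terms in the fit of all 51 libraries. None of the 78 genes passed for astrocytes against total homogenate, where 0.00695% of all genes (1 of 14379) did, for microglia against total homogenate, where 0.828% did, or for microglia against astrocytes, where 0.529% did, and 1, 3 and 1 of the 78 were below an unadjusted p of 0.05. Cox7a2l had the smallest p of the last 2. Its change in microglia was below that in astrocytes by -0.48 ± 0.15 (95% interval -0.78 to -0.18, adjusted p = 0.14) and below that in total homogenate by -0.39 ± 0.15 (adjusted p = 0.24). With the mouse as a block none passed either.

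The mice carried numbers in 3 ranges, 3 to 8 (2 controls and 2 CIE), 19 to 26 (3 and 4) and 35 to 41 (3 and 3), and the labels do not say what the ranges mark. A test of the range beside treatment, added after the data were seen, called 72 of the 78 genes in total homogenate, where 38.1% of all genes were called. Mice 35 to 41 were above mice 3 to 8 for 77 of 78 genes, with a median log2 difference of 0.39, and above mice 19 to 26 by 0.43. The exception was Cox6b2, which was lower by -1.24 (adjusted p = 0.0030), and the largest excess over mice 3 to 8 was that of Ndufc1 at 0.64 (adjusted p = 0.0023), followed by Ndufa5 at 0.64 (adjusted p = 0.0022). These p-values are those of the test over all 3 ranges. Other lists moved with the range in total homogenate as well: 21 of 31 proteasome subunits, 50 of 76 ribosomal proteins and 6 of 10 neuron markers were called, with medians above mice 3 to 8 by 0.38, 0.34 and 0.35. Of the markers of other cells, 5 of 10 of astrocytes were called (median 0.22), as were 6 of 6 of neutrophils (-1.45, and -4.05 against mice 19 to 26), 5 of 5 of border macrophages (-1.84 and -2.28) and 4 of 4 of ependymal cells and choroid plexus (-2.75 and -1.48). Reads outside annotated genes made up 23.3 to 30.3% in total homogenate of mice 3 to 8, 23 to 41% of mice 19 to 26 and 13.1 to 22.9% of mice 35 to 41. The part of these reads and cells in the difference was not tested. Without 1 mouse the count in total homogenate ran from 53 (without CIE mouse 41) to 75. In astrocytes 4 of 77 genes were called, where 10.6% of all genes were, and in microglia 1 of 75, where 16.1% were. The direction differed between preparations. In astrocytes mice 35 to 41 were above mice 3 to 8 for 2 of 77 genes (median -0.24) and mice 19 to 26 for 1 of 77 (median -0.29), while in microglia they were above them for 68 and 66 of 75 (medians 0.36 and 0.30). In astrocytes the mean over the 78 genes of log2 CPM minus the gene's mean was 0.29, -0.15 and -0.19 in controls of the 3 ranges. In CIE mice it was 0.11, -0.01 and 0.08, and the first control value rests on 2 libraries. The difference between preparations was not tested. Beside these, 9 of 10 microglia markers were called in astrocytes (medians 0.91 and 1.08), and in microglia 8 of 8 oligodendrocyte markers (1.13 and 1.36) and 7 of 7 endothelial markers (2.06 and 1.02). In astrocytes the count was 1 without control mouse 03, 2 without control mouse 05 or CIE mouse 08, 7 without CIE mouse 06 and 9 without control mouse 37. In microglia it was 5 without control mouse 19 or 22, 3 without CIE mouse 23 or 25, and 0 without control mouse 20 or 35 or CIE mouse 08, 40 or 41.

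**Figure D5:**
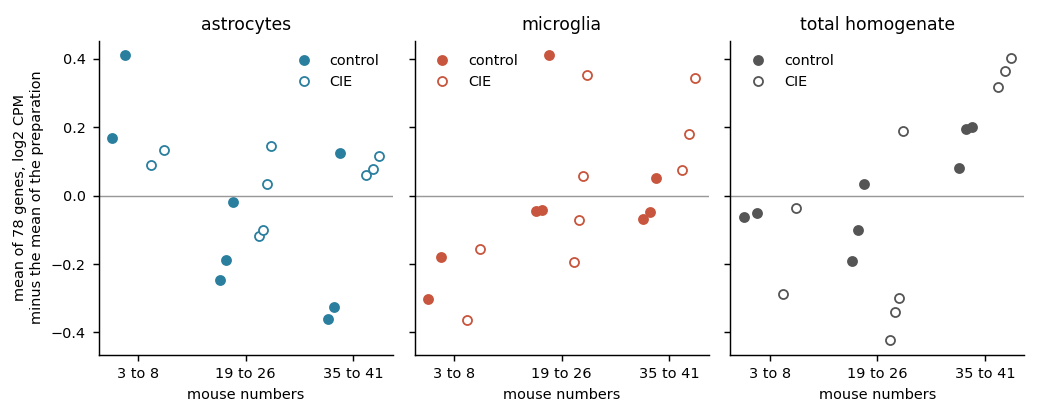
The y axis is the mean over the 78 genes of log2 CPM minus the gene's mean in the preparation, the x axis is the range of mouse numbers, and points are libraries, filled for control and open for CIE, in 1 panel per preparation. In total homogenate all 6 libraries of mice 35 to 41 lie above 0, and within that range the 3 CIE libraries lie above the 3 controls.

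Within the ranges the CIE differences went different ways. In total homogenate the median difference of the 78 genes was -0.10 in mice 3 to 8 (7 genes above 0), -0.13 in mice 19 to 26 (7 above 0) and 0.20 in mice 35 to 41 (78 above 0). In astrocytes it was -0.18 (6 above 0), 0.15 (67) and 0.28 (76), and in microglia -0.06 (33), -0.11 (29) and 0.19 (71). The genes of a library move together, so these counts are not independent observations. Other lists moved too. For the 3 ranges, proteasome subunits had medians of 0.03, -0.13 and 0.21 in total homogenate and -0.04, 0.17 and 0.21 in astrocytes. Microglia had -0.04, -0.13 and 0.11. Ribosomal proteins had -0.10, -0.04 and 0.14 in total homogenate, -0.01, 0.11 and 0.23 in astrocytes and -0.18, -0.36 and 0.04 in microglia. Neuron markers had 0.03, -0.24 and 0.23 in total homogenate, 0.03, 0.07 and -1.20 in astrocytes and -0.45, 0.32 and -0.17 in microglia. The difference of the CIE change between ranges was tested by an interaction term and called 0% of all genes in total homogenate, 0% in astrocytes and 0% in microglia, and none of the 78, with 2, 8 and 4 of them below an unadjusted p of 0.05. In astrocytes of mice 35 to 41, control mice 35 and 36 had 1 and 3 of the 78 genes above the preparation's mean. Their neuron markers were above their own mean by 1.08 and 1.35 on the log2 scale. Control mice 19 and 22 had 3 and 3 genes above the mean, with neuron markers at -0.35 and -0.10. CIE mouse 39 had 65 genes above it, with neuron markers at 0.58. The part of neurons in these values was not tested. With the range as a covariate the median CIE change in astrocytes was 0.12, and no gene passed.

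The spread between mice bears on these tests. The median SD of log2 CPM over the 78 genes was 0.18 in total homogenate of controls and 0.37 in that of CIE mice, where all genes had 0.20 and 0.28. In astrocytes the order was turned, with 0.31 in controls and 0.14 in CIE mice (all genes 0.25 and 0.21), and microglia had 0.30 and 0.34 (all genes 0.31 and 0.33). Single libraries moved the whole chain at once: the number of the 78 genes above the preparation's mean ran from 1 to 77 over the libraries of total homogenate, from 1 to 74 in astrocytes and from 10 to 75 in microglia.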

How the data were processed

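RNA was measured in 51 libraries (3 preparations of 17 mice), grouped by GEO's labels. According to the authors, reads were aligned to mm10 by STAR 2.5.0a after bcl2fastq 2.17 and Cutadapt 1.8, duplicates were handled by Picard 1.141 and genes were counted by HTSeq 0.6.1p1, and the deposited values are whole counts per gene symbol with no normalization. The strand setting and annotation release are not given in the sources used here, so overlapping genes may share reads. The 5 summary rows that name no gene were left out (reads outside genes, median 23.3% of all reads tallied, and reads not unique, 12.6%).

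CPM were scaled by TMM. CIE was compared with control per preparation, and preparations and responses in 1 fit of 6 groups, with edgeR 4.0.16 in R 4.3.3 (filterByExpr, quasi-likelihood test, Benjamini-Hochberg adjustment over all genes tested, threshold 0.05). A value after ± is the standard error of a log2 difference from the quasi-likelihood variance unless SD is named. Summaries were made in Python 3.11.15, with transcript lengths from a GENCODE annotation of mm10 and near-identical copies found with blastn 2.17.0+. Of a gene's principal transcripts, the best supported and then the shortest gave the length. The test of the ranges of mouse numbers was added after the data were seen. Alternatives were RLE scaling, no filter, DESeq2 1.42.0, the range of mouse numbers as covariate, the mouse as a replicate block, CIE mice in place of controls, and leaving out each mouse. The replicate number was taken as the mouse, which pairs the preparations. The correlation of deviations from the group mean was 0.12 for the median mouse between astrocytes and total homogenate, against -0.01 between different mice. It was 0.05 between microglia and total homogenate and 0.16 between microglia and astrocytes. Single mice ran from -0.169 to 0.37, -0.095 to 0.206 and -0.233 to 0.397 in these pairs. The range of mouse numbers was not taken out, so these values cannot tell a shared mouse from a shared range. The fits were also run on simulated counts with known changes, drawn independently for each gene with the same spread setting for all genes. Genes that move together in a library were not simulated, so that case is not covered.

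Named genes are the 3 of smallest p per preparation, Sdha and Sdhb, the 3 most positive and most negative differences between preparations, the highest and lowest level per complex, isoform pairs and genes next to the level limit; Sdhd was added after its values were seen. The genes and lists were chosen with earlier results of these data known.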

Additional observations from a re-analysis of the deposited data

Results flagged for a closer look

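Of 90 sets of values of 8 or 9 libraries tested for a library far from the others, 5 stood out, and chance alone gives about 1 in 20. In microglia of CIE mice, the library of mouse 23 had 103.7 CPM of Cox8a, above the next at 67.2 CPM (median 58.7), and 12.97 CPM of Atp5s, above the next at 7.01 CPM (median 4.47). The same library held 883.1 CPM of neuron markers and 1327 CPM of astrocyte markers, the highest sums of the microglia libraries. It also had the fewest assigned counts of the 51 libraries (571878). The part of these in its 2 values was not tested. In microglia of controls, mouse 19 had 87.06 CPM of Cox8a (next 59.7, median 51.9). In total homogenate of CIE mice, mouse 39 had 5.795 CPM of Cox6a2 (next 3.23, median 2.76). In astrocytes of controls, mouse 05 had 3.232 CPM of Cox6b2 (next 2.10, median 1.65).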

How the results depend on the processing

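No gene of the chain passed the threshold for CIE under RLE scaling, no filter, the range of mouse numbers as covariate, DESeq2 or leaving out any mouse, nor for a difference in response under RLE scaling, no filter or the replicate block. The number below an unadjusted p of 0.05 in astrocytes ran from 1 to 21 (without control mouse 03). The median CIE change without 1 mouse ran from -0.052 to 0.052 in total homogenate, 0.041 to 0.153 in astrocytes and -0.018 to 0.138 in microglia. Single genes near 0 changed sign without 1 mouse: Sdhb ran from -0.028 to 0.068 in astrocytes and -0.104 to 0.019 in total homogenate, and Sdha from -0.083 to 0.04 in total homogenate and -0.065 to 0.045 in microglia. In CIE mice the difference of astrocytes from total homogenate turned to 0.487 for Cox6b2, 0.063 for Atp5g2 and 0.077 for Sdhd, and 2 genes were higher instead of 1, while that of microglia turned to -0.214 for Cox7a2l and 0.029 for Atp5g2. Atp5g2 was also at 0.006 in astrocytes with RLE scaling and 0.006 with no filter. The number of genes called over the ranges of mouse numbers without 1 mouse ran from 53 to 75 in total homogenate, 1 to 9 in astrocytes and 0 to 5 in microglia, and in microglia it was 2 with RLE scaling and 0 with no filter. With the mouse as replicate block, which pairs the preparations, Cox4i1 (-0.316) and Atp5sl (0.26) lost their calls between microglia and astrocytes and no other named gene did. The cause of these moves was not tested. The depth of the microglia libraries limits the least abundant genes, Cox6a2, Cox6b2 and Cox4i2.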
